A study of Homo sapiens with 6 samples.

Results

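The stanniocalcins are a pair of human genes, STC1 and STC2, taken by their gene symbol from an array table of 65854 transcript clusters, the array's unit of about 1 gene. Each had 1 transcript cluster, and 0 unnamed clusters overlapped either of them, so the members were 2 clusters among 65854. They were chosen with the difference of STC1 between the lines already known, so the values of both members are given as a description and without a test. STC1 (TC08001062.hg.1, NM_003155, 80 probes) lies on the minus strand of chromosome 8 at 23699428 to 23712320, and STC2 (TC05002075.hg.1, NM_003714, 140 probes) on the minus strand of chromosome 5 at 172741716 to 172756506, both in the GRCh37 coordinates of the deposited table. The clusters span the whole of each coding gene, and no other cluster lay within 10 kb of either.

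The samples were 3 arrays of T24/THP and 3 of T24, with total RNA hybridised to Affymetrix whole-transcript arrays. T24 is an established line from a human bladder carcinoma, labelled drug-sensitive and parental. T24/THP was raised from it by repeated exposures of 24 h to pirarubicin, an anthracycline, from 5 up to 1000 ng/ml over more than 6 months, and was dosed again every 2 to 3 weeks. Both lines grew in RPMI-1640 with fetal bovine serum, T24 in parallel throughout the selection. Each line has 3 biological replicates per the labels, but T24/THP was selected once, so every comparison is between these cultures and not between separate selections. Whether T24/THP is a clone or a mixed population, and how long before extraction it was last dosed, is not given in the sources used here.

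Stanniocalcins are secreted glycoprotein hormones that form disulfide-linked dimers. The first was found in bony fish, where it limits calcium uptake by the gills, while in mammals both act mainly on nearby cells and are known for roles in phosphate handling, stress and tumours. Both proteins bind and inhibit the pappalysins PAPP-A and PAPP-A2, proteases that cut IGF-binding proteins and so release insulin-like growth factors. Transcription of both genes is known to be induced by hypoxia through HIF-1, and that of STC2 also by ATF4 when the endoplasmic reticulum is stressed.

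The window around the transcription start of STC2 is shown because both of those routes act through short DNA motifs. It runs from 250 bases before to 50 bases after the start on the minus strand of chromosome 5, at 173328365 to 173328664 in GRCh38.p14, from RefSeq. This is a different build from that of the array table. The capitals mark the core of the hypoxia response element, searched as ACGTG and GCGTG, and the CCAAT box, searched as CCAAT, each on both strands.
STC2: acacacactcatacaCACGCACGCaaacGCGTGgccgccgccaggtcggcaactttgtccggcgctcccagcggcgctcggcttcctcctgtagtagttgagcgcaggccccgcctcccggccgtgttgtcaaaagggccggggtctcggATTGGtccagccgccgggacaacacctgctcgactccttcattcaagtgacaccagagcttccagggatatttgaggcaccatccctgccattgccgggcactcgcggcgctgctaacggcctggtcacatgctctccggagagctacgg
GCGTG was found 3 times, starting 235, 231 and 222 bases before the start (on the minus, minus and plus strand of the printed sequence), with the first pair sharing a base. CCAAT was found 1 time, on the minus strand, 100 bases before the start. The other core, ACGTG, was not in the window. The letters TGATGCAA, a form of the amino acid response element that ATF4 binds, were not there on either strand. Nor was the TATA box, searched on both strands as TATAAA. Of 35116 RefSeq windows of the same 300 bases, 48.4% hold a hypoxia response element core of either form, 34.6% a CCAAT box, 11.5% the TATA box and 0.9% the amino acid response element. The STC2 window had a GC content of 64.0%.

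STC1 was far lower in T24/THP, while STC2 was at almost the same level in both lines. STC1 read 6.04, 6.08 and 5.57 log2 units on the 3 T24/THP arrays, against 11.18, 11.41 and 11.41 on the 3 T24 arrays. The lines did not overlap, and the gap between them was many times the spread within either. STC1 averaged 5.90 ± 0.28 in T24/THP and 11.33 ± 0.13 in T24 (SD, n = 3 each), a log2 difference of −5.44 ± 0.142 (SE, limma), or 43.3-fold lower in T24/THP. With an offset of 32 on the linear values, which damps differences of dim signals, it was −4.83. Among genes above the background bound in both lines, KRTAP2-3 alone had a larger fall, while for genes under the bound in T24/THP a fold is only a lower limit. A fold over all cells of a culture cannot tell fewer cells that express a gene from less RNA per cell.

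STC2 read 8.79, 8.81 and 9.03 on the T24/THP arrays, against 8.81, 8.57 and 8.62 on the T24 arrays. The lines overlapped, since T24 replicate 1 read as high as T24/THP replicates 1 and 2. STC2 averaged 8.88 ± 0.13 in T24/THP and 8.67 ± 0.13 in T24 (SD, n = 3 each), a log2 difference of 0.21 ± 0.092 (SE), or 1.16-fold. Of all genes, 61.8% had a smaller absolute difference than STC2, against 99.9% for STC1. Within each line the array with the lowest STC1 had the highest STC2, T24/THP replicate 3 and T24 replicate 1. This was noticed after the values were seen, over 3 arrays a line, and a link between the genes was not tested. The levels of the 2 genes come from different probes and are not set against each other.

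**Figure D1:**
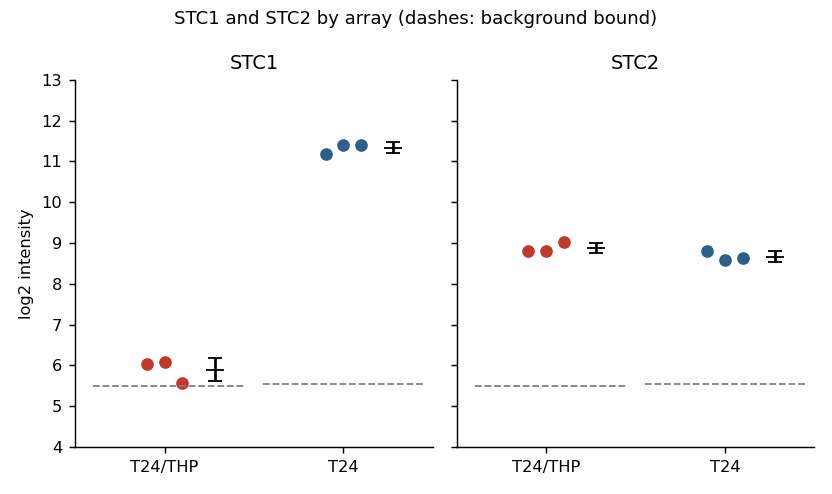
Log2 intensity of STC1 and STC2 on each array (points), with the mean and SD of each line (n = 3) beside them and the line's background bound as dashes. STC1 lies between 5.57 and 6.08 in T24/THP and between 11.18 and 11.41 in T24, while the STC2 values of the lines overlap.

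STC1 stayed just above the upper bound of the background range in T24/THP. The background range is that of the array's 23 background control probe sets. Its upper bound for a line, 5.51 in T24/THP and 5.54 in T24, averages the brightest such set of each of its arrays. The median background set read far lower, 2.65 to 2.69 on the T24/THP arrays and 2.69 to 2.86 on the T24 arrays. STC1 exceeded the brightest background set of its own array by 0.44, 0.72 and 0.02 log2 units in T24/THP, and by 5.89, 6.47 and 5.03 in T24. In T24/THP replicate 3 the STC1 reading was thus level with that probe set. STC2 exceeded it by 3.19 to 3.47 in T24/THP and by 2.24 to 3.64 in T24.

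Genes other than the members were tested with limma over all 24930 genes, and one is called at an adjusted p under 0.05 with a difference of at least 2-fold. By that rule 6.62% of all genes were called, 2.85% higher and 3.77% lower in T24/THP, and 15.2% of the 10519 genes above the background bound in at least 1 line. STC1 met the rule and STC2 did not. Since STC1 was picked from this same contrast, nothing is read from that. The 710 higher and 941 lower calls over all genes came to 800 and 798 under quantile normalization, and to 796 and 805 with the level trend of the difference removed.

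The genes whose profile over the 6 arrays lay closest to STC1 were SEMA7A, KRTAP2-3, FABP4, SMR3B and THBS1. Likeness was the root mean square distance between profiles centred on their own mean, and so follows the size of the line difference. It was taken over 18186 protein-coding genes. Symbols that begin with LOC, MIR, SNOR or RN, and those of antisense or open reading frame form, were left out. The ranks do not cover such genes. SEMA7A, a membrane-anchored semaphorin, was at a distance of 0.214 log2 units, with 4.86, 5.08 and 4.97 in T24/THP against 10.16, 10.26 and 10.14 in T24. KRTAP2-3, a keratin-associated protein, was at 0.245, FABP4, a fatty acid carrier, at 0.283, SMR3B, a salivary secreted protein, at 0.453 and THBS1, the matrix protein thrombospondin 1, at 0.756. SEMA7A, FABP4 and SMR3B were under the background bound in T24/THP, so their distances and order rest in part on readings not above background, and they were at least 25.7-fold, 13.5-fold and 7.12-fold lower. Only 7 of the 18186 genes lay closer than 1 log2 unit to STC1.
By the same measure 10098 of the 18186 genes lay closer than 0.2 log2 units to STC2. This count and the 7 for STC1 follow from the size of each member's own difference, by which STC1 was chosen. The nearest to STC2 were ZNF608 (0.032), VRTN (0.033), FOXI1 (0.040), SPDYE1 (0.040) and KIR2DS1 (0.040), all below the background bound in both lines.

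**Figure D2:**
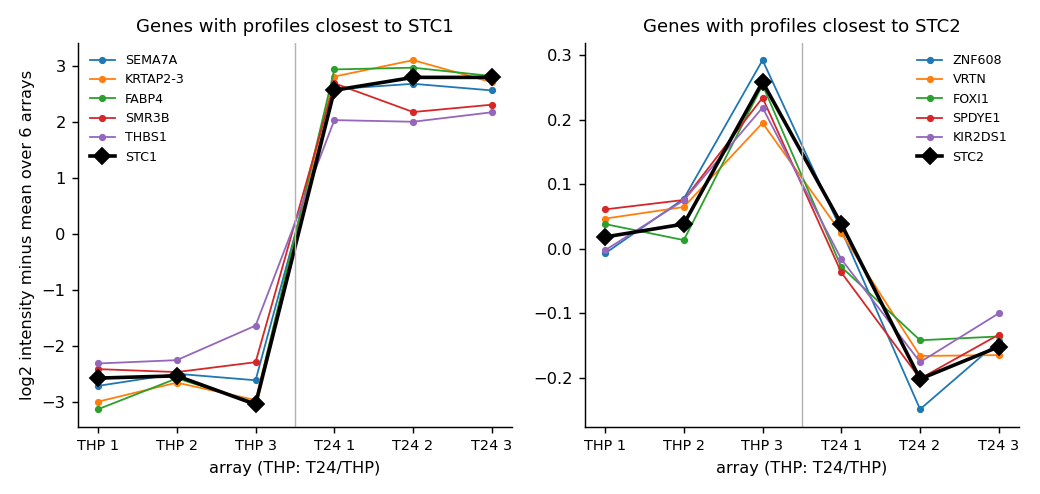
Log2 intensity minus the gene's mean over the 6 arrays (vertical axis) for STC1 and STC2 (black) and the 5 genes closest to each, by array; lines only guide the eye, and the scales of the panels differ. The STC1 panel shows 6 genes that are low on all T24/THP arrays and high on all T24 arrays, and the STC2 panel genes that differ little between the lines.

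Of 21 tested genes within 1 Mb of STC1, none was called by limma, against 6.62% of all genes, while 10 had an unadjusted p under 0.05 and 9 an adjusted p under 0.05 with less than a 2-fold difference. Of all genes, 40.3% had an unadjusted and 33.1% an adjusted p under 0.05. Their differences ran from −0.72 to 0.81 with a median of −0.07, against a median of 0.01 over all genes. The 2 extremes, named after their values were seen, were TNFRSF10D, a decoy receptor of the death ligand TRAIL, at −0.72, and ENTPD4, a nucleotide phosphatase of the Golgi, at 0.81. The nearest tested genes were NKX2-6, a homeobox gene 135.3 kb away, and ADAM28, a membrane protease 439.2 kb away on the other side. Both were below the background bound in both lines.

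Of 17 tested genes within 1 Mb of STC2, 2 rose and none fell, against 2.85% higher and 3.77% lower of all genes, with a median of 0.06. The called genes were 20.0% of the 10 above background in a line, where 15.2% of all such genes were called. CREBRF, a regulator of the stress factor CREB3, read 9.04, 8.97 and 9.29 in T24/THP, against 7.37, 7.20 and 7.32 in T24. It was 3.49-fold higher (adjusted p of 1.02e-05). CPEB4, which binds RNA and regulates its translation, was 2.12-fold higher (adjusted p of 7.61e-04), and its log2 difference of 1.09 dropped under the 2-fold minimum without T24/THP replicate 3 (0.97) or T24 replicate 2 (0.97) and with an offset on low values (0.88). The nearest tested loci, RNA5SP200 at 22.1 kb and LINC02995 at 250.1 kb, were below the background bound in both lines.

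**Figure D3:**
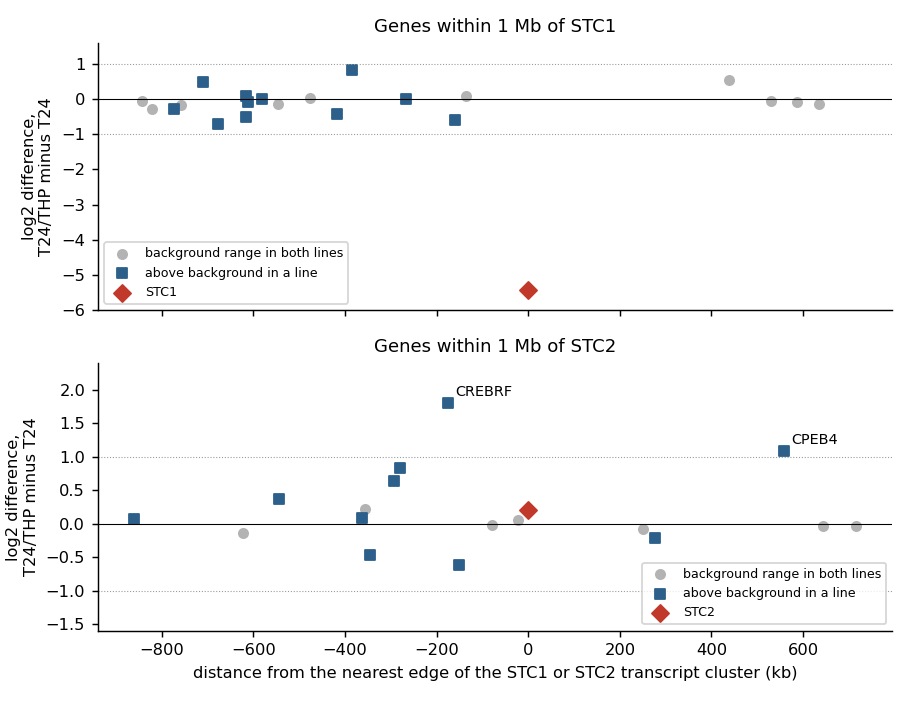
Log2 difference, T24/THP minus T24 (vertical axis), of genes within 1 Mb against their distance in kb from STC1 or STC2 (diamonds); negative distances are lower coordinates and dotted lines mark a 2-fold difference. No neighbour of STC1 passes a dotted line, against −5.44 for STC1, and CREBRF and CPEB4 are above it near STC2.

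The pappalysins that stanniocalcins inhibit were not above the background bound in either line. PAPPA averaged 3.65 ± 0.05 in T24/THP and 3.60 ± 0.17 in T24, and PAPPA2 3.30 ± 0.04 in T24/THP and 3.30 ± 0.08 in T24 (SD, n = 3 each), all under the background bound. IGFBP4, the binding protein that PAPP-A cuts, was well above it, with 12.12, 12.33 and 12.24 in T24/THP against 12.39, 12.37 and 12.37 in T24. Its difference of −0.14 did not pass (adjusted p of 0.157). IGFBP5, also a pappalysin substrate and named after its values were seen, was below the background bound in both lines, at 5.38 in T24/THP and 4.71 in T24. Its lines lay apart, with a difference of 0.68 under the 2-fold minimum (adjusted p of 2.32e-04).

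Of 21 measured genes on the list of the pappalysin and IGF axis, 2 rose and 1 fell, or 27.3% of the 11 above background in a line, where 15.2% of all such genes were called. The median difference was 0.05 over the list against 0.01 over all genes, and 0.51 over those 11 against −0.08 over all genes above background in a line. IGFBP6, a binding protein that prefers IGF-II, read 8.63, 8.87 and 8.47 in T24/THP against 6.20, 6.19 and 6.09 in T24. It was 5.63-fold higher (log2 difference 2.49 ± 0.102, adjusted p of 3.58e-06). IGFBP7, a secreted protein that binds IGFs weakly, was 2.51-fold higher, at 15.44 ± 0.12 in T24/THP and 14.11 ± 0.11 in T24 (adjusted p of 2.49e-05). IGF2BP3, an RNA-binding protein of the IGF2 message, fell by 1.34 on the log2 scale to 6.59 in T24/THP, against 7.93 in T24 (adjusted p of 2.40e-05). In a test against 2-fold itself IGFBP6 alone of the 3 passed.
IGF1R, the receptor of IGF-I, read 6.74, 6.75 and 6.67 in T24/THP against 6.21, 6.14 and 6.27 in T24, a difference of 0.51 under the 2-fold minimum (adjusted p of 4.41e-04). IRS2, an adaptor of that receptor, and PRSS23, a secreted protease, differed by 0.95 and 0.96, and both were called under quantile normalization, at 1.02 and 1.06, and with the level trend removed, at 1.02 and 1.07. IRS2 was also called without T24 replicate 3, at 1.10. They were named after their values were seen. IGF1 was below the background bound in both lines, and IGF2 was not analysed here.

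**Figure D4:**
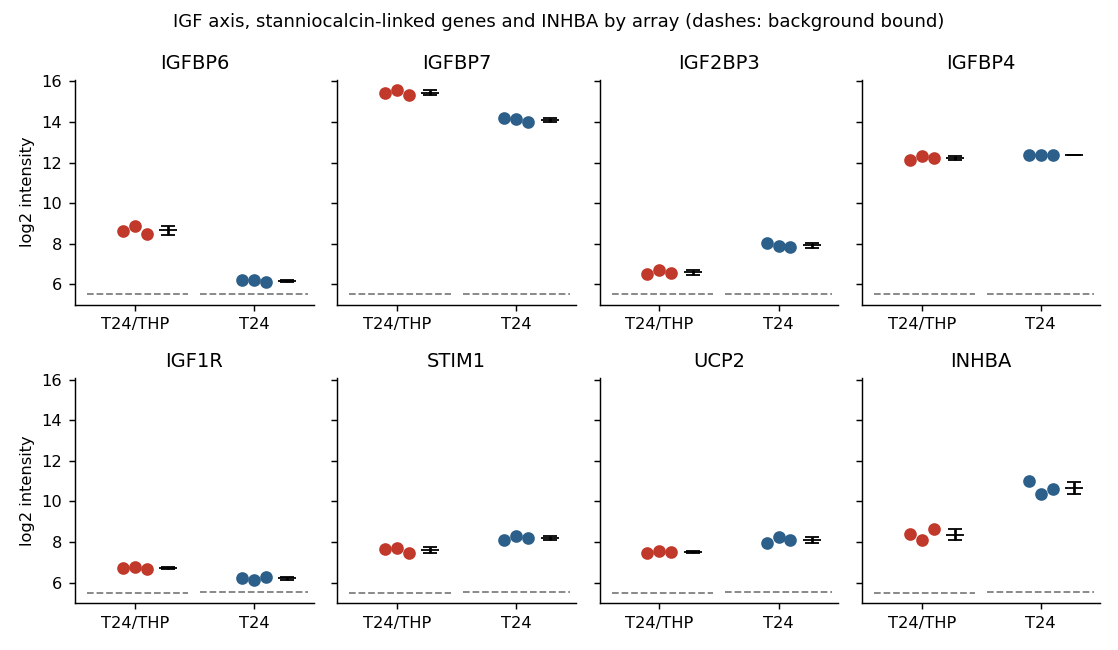
Log2 intensity on each array (points), with the mean and SD of each line (n = 3) and background bounds as dashes, for IGF axis genes, STIM1, UCP2 and INHBA. IGFBP6 and IGFBP7 are higher and IGF2BP3 and INHBA lower in T24/THP by over 2-fold, while IGFBP4, IGF1R, STIM1 and UCP2 differ by less.

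The other reported partners of stanniocalcins differed by less than 2-fold or were not above background. STIM1, the calcium sensor of the endoplasmic reticulum to which STC2 has been reported to bind, read 7.68, 7.71 and 7.47 in T24/THP against 8.12, 8.28 and 8.22 in T24. UCP2, the mitochondrial uncoupling protein that STC1 has been reported to induce, read 7.47, 7.55 and 7.50 in T24/THP against 7.93, 8.24 and 8.11 in T24. Both had the lines apart and a log2 difference of −0.58 (adjusted p of 0.00111 for STIM1 and 0.00116 for UCP2). HMOX1, a heme-degrading enzyme reported to bind STC2, was below the background bound in both lines.

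Of 22 genes on the list of store-operated calcium entry and calcium stores none was called by limma, against 6.62% of all genes. Of all genes above background in a line, 15.2% were called. On this list 12 had an unadjusted p under 0.05 and 10 an adjusted p under 0.05, against 40.3% and 33.1% of all genes. Its lowest member was STIM1 at −0.58, and its highest was at 0.97. The median of the list was 0.05, or 0.15 over the 13 above background in a line. TRPC1, a cation channel named after its values were seen, was under the background bound in T24, so its difference is only a lower limit, and it was not called. It was called without T24/THP replicate 2 or T24 replicate 2. Of 27 hormones and carriers of calcium and phosphate 21 were below the background bound in both lines, among them PTH and CASR, the parathyroid hormone and the calcium receptor. The 1 called member was 3.7% of these 27, against 6.62% of all genes called. Of the 6 above background in a line it was 16.7%, against 15.2% of all such genes. It was ATP2B4, a calcium pump of the plasma membrane, with 6.52, 6.60 and 6.73 in T24/THP against 7.76, 7.65 and 7.77 in T24. It fell by 1.11 (adjusted p of 2.57e-05), and by 0.90 with the offset on low values. SLC20A1, a phosphate importer, differed by −0.55 (adjusted p of 2.68e-04) and was named after its values were seen.

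Of the genes that hypoxia induces, as it does STC1 and STC2, some rose and more fell. Of 32 measured, 3 rose and 6 fell, against 2.85% and 3.77% of all genes, with a median of 0.01. The called genes made up 34.6% of the 26 above background in a line, where 15.2% of all such genes were called. BHLHE40, a transcriptional repressor, read 7.72, 7.73 and 7.65 in T24/THP against 9.55, 9.12 and 9.09 in T24, and fell by 1.55 (adjusted p of 5.61e-05). LOX, which crosslinks collagen, was 2.55-fold higher (adjusted p of 0.00111) and SLC2A3, a glucose carrier, 2.29-fold higher (adjusted p of 4.77e-05). Further called members, named after their values were seen, were NDRG1 at 1.12, and DDIT4 at −1.29, VEGFA at −1.20, PDK1 at −1.13 and PGK1 at −1.12. With the offset NDRG1 (0.98) and PDK1 (−0.87) lost their calls, as did PGK1, just under the minimum, with quantile normalization.
CA9, a carbonic anhydrase widely used as a hypoxia marker and named after its values were seen, was below the background bound in both lines, at 3.01 in T24/THP and 2.85 in T24. HIF1A, the oxygen-regulated subunit of HIF-1, read 14.23, 14.20 and 14.39 in T24/THP against 13.84, 13.63 and 13.67 in T24, a difference of 0.56 (adjusted p of 0.00122). EPAS1, which encodes HIF-2α, differed by 0.59 (adjusted p of 0.00111). Both lay under the 2-fold minimum, and arrays do not read the protein, through which oxygen acts on these factors.

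On the list of ATF4 and unfolded protein response genes, which includes the route known to induce STC2, 1 of 31 rose and 4 fell, with a median of −0.19, or −0.24 over the 27 above background in a line. The called genes were 18.5% of those 27, against 15.2% of all such genes. NUPR1, a stress-induced nuclear protein, was 2.55-fold higher (adjusted p of 0.00261). SLC7A5, the large neutral amino acid carrier, read 11.04, 11.05 and 10.66 in T24/THP against 12.49, 12.41 and 12.51 in T24, and fell by 1.55 (adjusted p of 3.42e-05). CHAC1, which degrades glutathione, fell by 1.17 (adjusted p of 4.80e-04), and by 0.96, under the 2-fold minimum, with the offset on low values. The other called members, named after their values were seen, were the amino acid carriers SLC7A11 at −1.14 and SLC7A1 at −1.07, the last under the minimum without T24/THP replicate 3 (−0.96), under quantile normalization (−0.97) and with the level trend removed (−0.95). ATF4 itself read 12.19, 12.34 and 12.40 in T24/THP against 12.05, 12.00 and 12.16 in T24, a difference of 0.24 (adjusted p of 0.0476).

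Of 49 other hormones and hormone-like secreted peptides, 45 were below the background bound in both lines. By the calling rule 1 rose and 1 fell, or 4.1% of the list against 6.62% of all genes. They were 50.0% of the 4 above background in a line, where 15.2% of all such genes were called. INHBA, the subunit that forms activin A, read 8.38, 8.09 and 8.63 in T24/THP against 11.00, 10.38 and 10.60 in T24, and fell by 2.29 (adjusted p of 6.22e-05). INHBB, the subunit of activin B, read 5.83, 6.30 and 7.52 in T24/THP against 4.91, 5.23 and 5.68 in T24. Its lines lay apart by little, it was at least 2.02-fold higher (adjusted p of 0.049), and it lost its call without any one of 5 of the 6 arrays, all but T24/THP replicate 1, as well as under quantile normalization and with the offset. GDF15, a stress-induced cytokine named after its values were seen, was not called at 0.88, but was called under quantile normalization (1.01) and with the level trend removed.

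**Figure D5:**
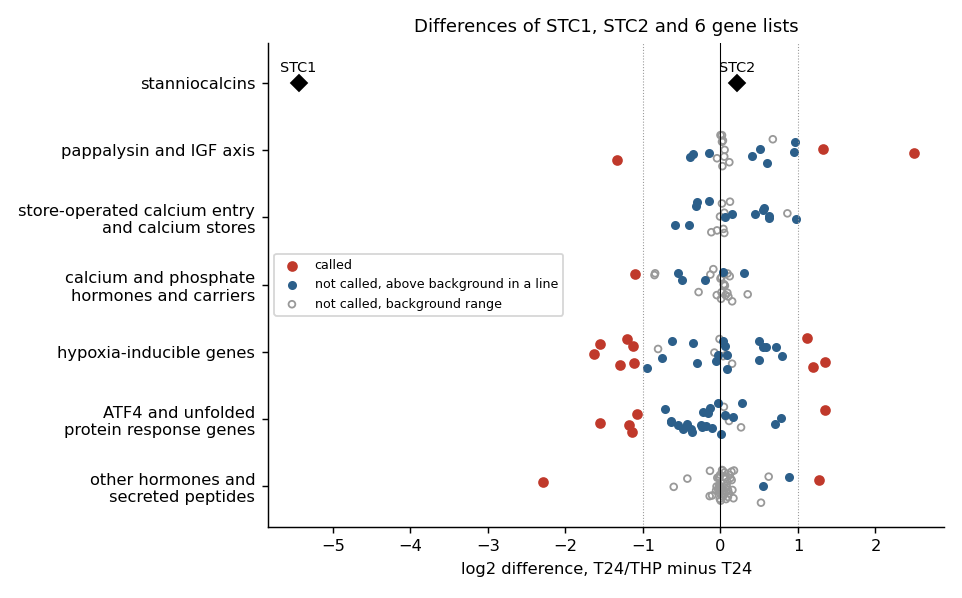
Log2 difference, T24/THP minus T24 (horizontal axis), of STC1 and STC2 (diamonds) and of each measured member of 6 lists; vertical scatter within a list has no meaning and dotted lines mark a 2-fold difference. STC1 at −5.44 lies beyond every list member, the lowest of which is INHBA at −2.29.

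The deposited table gives STC1 and STC2 8 gene ontology terms of process and function in common, among them hormone activity, cellular response to hypoxia, response to vitamin D and decidualization, the change of the uterine lining at implantation. These terms were looked at after the lists above had been fixed, and the members are left out of each count. Beside these counts stand the 6.62% of all genes, and 15.2% of those above background in a line, that were called. Of 84 other genes with hormone activity, 1 rose and 1 fell, INHBB and INHBA. Of 40 with cellular response to hypoxia 1 rose and 5 fell, with PTGS2, the inducible cyclooxygenase, lowest at −2.15. Of 15 with decidualization 1 rose, the coactivator CITED2, 3.41-fold, and 3 fell, PTGS2, the cytokine LIF at −1.53 and the phospholipase PLA2G4A, at least 1.85-fold lower. Of 15 with response to vitamin D 1 rose, the chemokine CXCL10, at least 8.86-fold, and 3 fell, IL1B at −2.32, PTGS2 and PLA2G4A. VDR, the vitamin D receptor, was below the background bound in both lines, at 4.23 in T24/THP and 5.09 in T24. Its lines lay apart, with a difference of −0.85 under the 2-fold minimum (adjusted p of 2.42e-04). PTGS2 stands on 3 of the 4 terms just named and PLA2G4A on 2, so these counts are not independent. Over all members of a term, to be set beside the 6.62%, the called share was 2.4% for hormone activity and 15.0% for hypoxia. It was 26.7% each for decidualization and vitamin D. On the other shared terms it was 7.7% for response to nutrient and 9.2% for cell surface receptor signaling. It was 10.7% for cell-cell signaling and 16.1% for embryo implantation.

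Arrays of the same line correlated at 0.9967 to 0.9984 over genes and arrays of different lines at 0.977 to 0.981 (Pearson), and array medians were 3.76 to 3.79 in T24/THP and 3.71 to 3.76 in T24. Of 19 urothelial and epithelial markers, KRT7, KRT8 and KRT18 alone were above background, and the uroplakins, GATA3, CDH1 and KRT20 were below the background bound in both lines. All 9 fibroblast and all 9 leukocyte markers were in that range, as were 6 of 7 endothelial and 5 of 6 neural markers. The exceptions were CDH5, at 13.12 in T24/THP and 12.30 in T24, and SNAP25, at 5.74 in T24/THP and 4.52 in T24. The summed log2 level of the fibroblast markers, a cell type in which stanniocalcins are also made, was 31.0 to 31.1 in T24/THP and 30.4 to 31.1 in T24. This sum adds readings in the background range, so it cannot measure such cells. T24 replicate 3 stood apart by its brightest background probe set, at 6.38 against 4.93 and 5.29 on the other T24 arrays. Without that array the difference of STC1 was −5.40 and that of STC2 0.19. That probe set also raised the T24 background bound of 5.54. Genes just under this bound in T24, such as TRPC1 (5.33), INHBB (5.27) and EPCAM (5.31), and the counts of genes below it, depend on that array. A bound without it was not computed.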

How the data were processed

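Per the labels' protocols, biotin-labelled cDNA was made from total RNA of 6 cultures with the WT PLUS kit. The values the authors deposited are log2 intensities, 1 for each transcript cluster and array. The submitters' processing notes name Affymetrix Expression Console without a version or algorithm. The annotated table, whose text names GRCh37, holds 65854 transcript clusters. Those with 1 symbol were used, with symbols updated through RefSeq GRCh38.p14, and the brightest cluster by mean over all arrays stands for a gene, which gave 24930 genes. No low values were filtered.

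The lines were compared by limma 3.58.1 (R 4.3.3) on the log2 values, as 2 groups without covariates, with two-sided p-values adjusted over all genes after Benjamini and Hochberg. Calls needed an adjusted p under 0.05 and a log2 difference of at least 1. The script was tested on simulated data. The precision rests on 3 arrays a line. Neither labels nor files give a batch or scan date. Where 1 line was at or under its background bound, the fold was taken from that bound and is written "at least".

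STC1, STC2 and the lists were chosen with earlier results of these data known. Genes were named by a rule: the members, the nearest tested gene on each side, from each list at most 2 called genes that rose and 2 that fell, HIF1A, EPAS1, ATF4, HMOX1, UCP2, PAPPA, PAPPA2, IGFBP4, IGF1R and STIM1, and the 5 protein-coding genes closest in profile to each member. One gene that this rule names is not reported here. Alternatives were quantile normalization, an offset of 32 on linear values, removal of the level trend of the difference, the series table's values, a filter at the 50th percentile of level, a test against 2-fold, the mean over a gene's clusters, leaving out each array, and the replicate number as a block. All columns of per-sample values were matched to a label.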

Additional observations from a re-analysis of the deposited data

How the results depend on the processing

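The difference of STC1 was −4.83 with the offset of 32, which by its construction shrinks differences where 1 line is dim, and −5.53 to −5.27 over fits without 1 array each. That of STC2 was 0.34 with quantile normalization and 0.13 to 0.28 without 1 array each. Under no alternative did either change sign. The labels do not say whether same-numbered replicates of the lines were handled together. The correlation of their deviations from the line means was 0.04, 0.151 and 0.019, which cannot settle this. With the replicate block the differences were −5.44 and 0.21, 1653 genes were called against 1651, and no list count changed.

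The test against 2-fold left 738 genes, 1 member of the IGF list, 0 of the calcium and phosphate list, 2 of the hypoxia list, 1 of the ATF4 list, 1 of the hormone list and 1 neighbour of STC2. The IGF list had 5 calls under quantile normalization and 5 with the level trend removed. The offset left 0 calls on the calcium and phosphate list, 7 on the hypoxia list, 4 on the ATF4 list, 1 on the hormone list and 1 neighbour of STC2. Without 1 array each, calls were 1590 to 1768 over all genes, 3 to 4 on the IGF, 0 to 1 on the store-operated, 1 to 1 on the calcium and phosphate, 9 to 10 on the hypoxia, 4 to 5 on the ATF4 and 1 to 2 on the hormone list, and 0 to 0 neighbours of STC1 and 1 to 2 of STC2. The cause of these shifts was not tested. Depth does not apply to arrays, and STC1 in T24/THP is limited by its signal, which was 0.02 to 0.72 log2 units over the brightest background probe set.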
